A study of Colocasia esculenta with 9 samples.

Results

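Long introns mark 499 of the 57034 gene models of a taro (Colocasia esculenta) assembly, 0.875% of them. A gene model was taken as a member where its span, from the first to the last exon base, exceeded its Length, the summed length of its exons, by at least 20000 bp. The choice rests on the annotation alone and used no measured level. Leaf RNA was sequenced from 3 cultivars, Sam-07 (also called Samasama), Palau 10 (also called Ngerruuch) and Niue, with 3 libraries each. All plants had been raised from tissue culture and were 8 months old and vegetative. They grew in a chamber at 27 °C and 85% humidity with a 12 h photoperiod, and each RNA came from 4 g of the youngest 2 leaves and was dried for 40 h before shipment. Whether libraries of a cultivar stem from separate plants is not stated, so p-values cover no more than the spread among these libraries, and that spread may be technical.

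Introns are transcribed with the gene and removed by splicing, so a gene with long introns makes a long precursor RNA for a mature message of ordinary length. In plants most introns are short, and long ones often hold transposable elements. Only fragments on exons were counted here, so the levels describe exon sequence. Retained introns and unspliced RNA were not measured apart from spliced RNA, and fragments of such RNA on exons count as well. No gene name or product comes with the deposited gene models, so they appear here under their identifiers, with positions on scaffolds counted from 1. For the same reason no function can be given for any of them, and the labelled tissue could not be checked against leaf marker genes.

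The members' summed introns had a median of 22757 bp (quartiles 21013 and 25773.5 bp, maximum 54580 bp), against 1741 bp over all gene models. They had a median of 13 exons and a Length of 2116 bp, against 3 exons and 865 bp over all gene models. Intron totals crowded just above the limit: 351 members lay below 25000 bp, 54 reached 30000 bp and 2 reached 50000 bp. Just inside the limit lay Taro_021007 with 20012 bp and Taro_033711 with 20014 bp, and just outside lay Taro_014581 with 19976 bp and Taro_022175 with 19960 bp. Taro_021007 and Taro_014581 had no fragment in any library, while Taro_033711 averaged 18.1 and Taro_022175 17.5 CPM per kb (fragments per 1000000, divided by Length in kb). Together the members held 6.15% of all intron bases in the annotation.

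The intron length of a member was usually spread over several introns. The longest intron of a member measured 8520 bp at the median and made up a median of 34.0% of the intron total, and it made up most of the total in 76 members. It was the first intron in 52 members and the last in 58. If every intron of a member had the same chance of being the longest, the first would be so in 60.4. An intron of at least 20000 bp occurred in 9 gene models of the annotation, all of them members. The 499 members lay on 464 scaffolds, 252 on the plus and 247 on the minus strand. TARO_scaffold_000129 carried the most, with 4, between 174882 and 659671. Members overlapped another gene model more often than gene models at large, 19.8% against 7.21%. The rule itself picks long spans, with a median of 25059 bp against 2970 bp, which leave more room for overlap. Within their spans 65 members enclosed 68 whole gene models, all 68 on the opposite strand. In 44 of these 68 pairs the enclosing member alone was expressed, in 2 the enclosed gene model alone, in 2 both and in 20 neither, by the limit given next. Expressed were thus 4 of the 68 enclosed gene models, against 26.2% of all gene models, with no comparison at like exon number and Length. Counting took no account of strand, so RNA of the enclosing member on the exons of an enclosed gene model counted for the latter.

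Most members were expressed in young leaves. A gene model was called expressed at 1 CPM or more in all 9 libraries, where CPM is fragments per 1000000 scaled with TMM (trimmed mean of M-values) factors. By this limit 335 of the 499 members were expressed, 67.1%, against 14916 of 57034 gene models, 26.2%. No fragment was found in any library for 111 members, 22.2%, against 51.3% of all gene models. For these the 9 libraries together allow a level of up to 0.0270 CPM, the level of 3 fragments, and the limit covers counting error only. The remaining 53 members lay between, with a median of 0.235 CPM. Fragments that map to several places were not counted, and sequence that differs from the assembly can fail to map, so a member without fragments is not shown to be silent. Since whole leaves were extracted, fewer cells of a type and less RNA per cell cannot be told apart.

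Few cultivar or library differences showed in this share. All 3 libraries reached 1 CPM for 340 members in Sam-07, 340 in Palau 10 and 343 in Niue. Library by library, 347, 342 and 348 members reached it in Sam-07 replicates 1, 2 and 3. Palau 10 replicates 1, 2 and 3 had 345, 340 and 351 such members, and Niue replicates 2, 3 and 4 had 346, 350 and 349. The libraries ranged from 5468567 to 18175384 counted fragments, and the extremes of the share, 68.1% and 70.3%, belonged to libraries of nearly equal depth, Palau 10 replicates 2 and 3. No member was at 1 CPM or more in all 3 libraries of a cultivar and without a fragment in another. Over the whole annotation 169 gene models, 0.296%, showed that pattern in some direction.

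Set against compact gene models of like exon number and Length, members were expressed far more often. Compact gene models have 2 or more exons and under 2000 bp of introns, and 26066 gene models met this. They were weighted to the members' joint classes of exon number and Length, and 121 members with 16 or more exons fell in classes without any compact gene model. Of the 378 members that could be compared, 61.6% were expressed, against a weighted 18.16% of the compact gene models, a difference of 43.5 percentage points. The weighting left the compact share resting on the equivalent of 103 gene models. In single libraries the difference lay between 41.5 and 42.7 points, in all 9 of them in the same direction. Without a fragment in any library were 26.2% of these members, against a weighted 55.7% of the compact gene models. A single compact gene model with more than 15 exons stood for 33 members. In classes with at least 5 compact gene models, a restriction added after seeing the data, the shares were 58.9% for 336 members and 19.5% for compact gene models. The gap is described here with no test across gene models, which are not independent replicates.

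**Figure D1:**
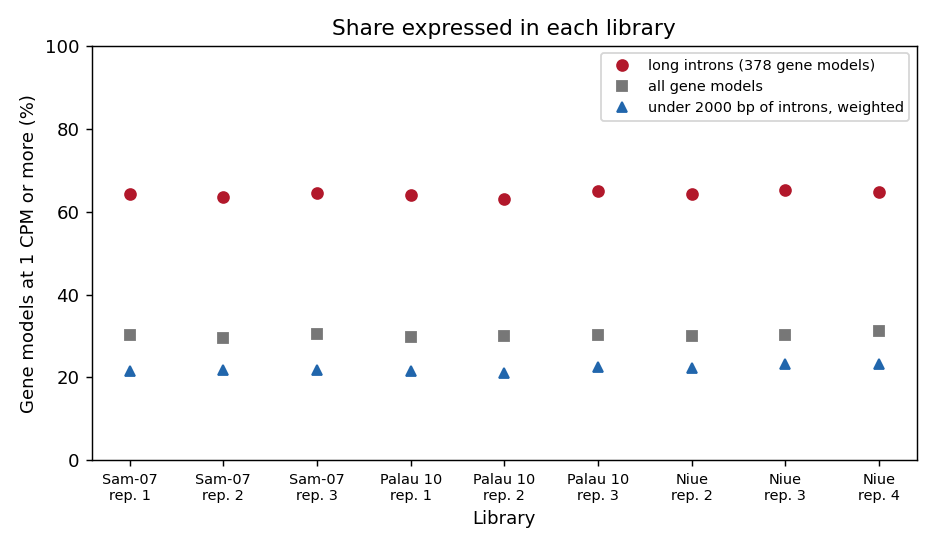
Share of gene models at 1 CPM or more (vertical axis, %) in each of the 9 libraries (horizontal axis, by cultivar) for the 378 long-intron gene models that share a class of exon number and Length with compact ones (circles), all gene models (squares) and weighted compact gene models (triangles). The circles lie between 63.0% and 65.3% and the triangles between 21.1% and 23.3%.

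The contrast depended on exon number. Among members with 2 to 5 exons 5 of 53 were expressed, 9.43%, against a weighted 13.1% of compact gene models, and in every library the members' share was the lower one, by 5.04 to 7.17 points. Among members with 6 to 10 exons 73 of 126 were expressed, 57.9%, against a weighted 12.4% of compact gene models. Among those with 11 to 15 exons the shares were 77.1% of 166 members and a weighted 27.8% of compact gene models, of which only 120 had so many exons. With 16 to 20 exons 60 of 71 members were expressed and with 21 or more 69 of 83, and compact gene models of that size were too few to compare. Splitting by exon number in this way was chosen after seeing the data.

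Compact gene models with many exons stood low against every other intron class, so the contrast with them is not a measure of very long introns alone. Weighted to the members' exon numbers and Lengths, 52.0% of gene models with 2000 to 5000 bp of introns were expressed. The weighted share was 56.1% at 5000 to 10000 bp, 60.3% at 10000 to 20000 bp, 66.6% at 20000 to 30000 bp and 81.1% at 30000 bp or more. The last of these classes holds 54 gene models, none of them with 2 to 5 exons. It could be weighted to 344 of the 499 members only, and 77.0% of those were expressed. Its 81.1% therefore rests on another mix of exon numbers and Lengths than the 66.6% before it. Against all 21350 gene models with 2000 to under 20000 bp of introns that fell in the members' classes, a comparison added after seeing the data, members exceeded the weighted share of 56.7% by 10.4 points. This smaller difference again turned with exon number. Members with 2 to 5 exons were expressed less often than such gene models, 9.43% against 19.2%. With 6 to 10 exons the shares were 57.9% and 55.7%, and the sign varied between libraries, members being higher in 6 of 9. With 11 to 15, 16 to 20 and 21 or more exons members were higher by 10.8, 17.9 and 28.5 points, and in each of the 9 libraries.

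**Figure D2:**
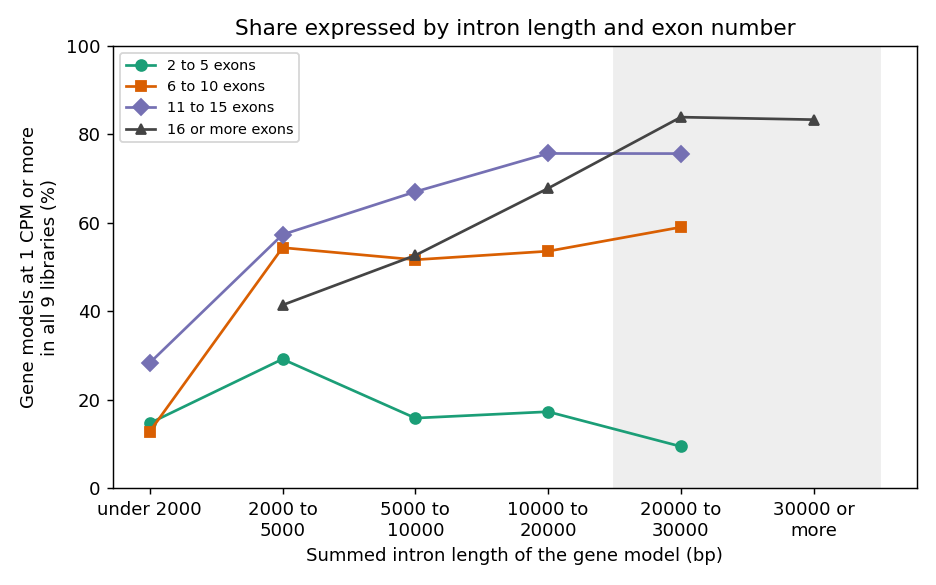
Share of gene models at 1 CPM or more in all 9 libraries (vertical axis, %) by summed intron length (horizontal axis, bp classes), with 1 line per exon-number group; points resting on fewer than 20 gene models are left out and the grey band holds the long-intron gene models. Within the band the share is 9.43% with 2 to 5 exons, 59.0% with 6 to 10, 75.7% with 11 to 15 and 83.9% with 16 or more (20000 to 30000 bp).

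Members whose longest intron made up most of the intron total were mostly not expressed. Of these 76 members 20 were expressed, 26.3%, and 42 had no fragment in any library. Where the longest intron made up less than 25% of the total, 66 of 81 members were expressed, 81.5%, and 8 had no fragment. These groups also differed in exon number, with medians of 5.5 and 20 exons, and in Length, with 960 and 3441 bp, and the part of these in the contrast was not tested. Of the 9 members with an intron of at least 20000 bp, 8 had no fragment in any library. The exception, Taro_018429 (TARO_scaffold_000857, 306332 to 335645, plus strand, 6 exons, with intron 5 of 21046 bp), had 8.96, 17.6 and 5.33 CPM in Sam-07 replicates 1, 2 and 3. It had 7.67, 8.36 and 21.2 CPM in Palau 10 replicates 1, 2 and 3 and 10.4, 10.1 and 8.79 CPM in Niue replicates 2, 3 and 4. These values overlap among the cultivars.

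The longest introns of the annotation belonged to gene models of 2 exons. Taro_005992 (TARO_scaffold_000176, 14714 to 44663, minus strand) has exons of 310 bp in all around an intron of 29640 bp. Taro_012040 (TARO_scaffold_000466, 8536 to 32440, minus strand) has an intron of 23368 bp, and Taro_031647 (TARO_scaffold_002268, 117160 to 140742, minus strand) one of 23011 bp. None of these 3 had a fragment in any library. Among the 53 members with at most 5 exons 40 had no fragment, 8 lay between and 5 were expressed, each of the 5 with 5 exons. The 5, named because they were so few, were Taro_020774 (20.9 CPM per kb on average), Taro_030947 (20.1), Taro_032731 (16.6), Taro_038243 (14.9) and Taro_024922 (6.12).

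By contrast, the 3 members with the largest intron totals, of 34, 35 and 14 exons, were all expressed. Of the 54 members with 30000 bp or more of introns, 44 were expressed and 6 had no fragment. Taro_010312 (TARO_scaffold_000371, 244826 to 305548, minus strand) has 34 exons and 54580 bp of introns, the most of any gene model, and overlaps 2 others. Its level was 543, 730 and 459 CPM in Sam-07, 284, 274 and 603 CPM in Palau 10 and 451, 577 and 538 CPM in Niue, each in the order of replicates. The low values were those of Palau 10 replicates 1 and 2, and the groups overlap through Palau 10 replicate 3. Taro_032130 (TARO_scaffold_002345, 145740 to 201736, minus strand, 35 exons, 52344 bp of introns) had 40.5, 31.5 and 34.3 CPM in Sam-07, 30.9, 22.6 and 26.6 CPM in Palau 10 and 28.9, 34.8 and 37.5 CPM in Niue. Taro_019232 (TARO_scaffold_000920, 25884 to 74734, minus strand, 14 exons, 47333 bp of introns) had 14.3, 14.98 and 13.4 CPM in Sam-07, 8.91, 8.09 and 5.64 CPM in Palau 10 and 8.22, 10.6 and 10.7 CPM in Niue. Its Sam-07 libraries lay above all 6 others, by 0.92 on the log2 scale over Palau 10 (SE 0.24), which missed the threshold in edgeR's quasi-likelihood test (adjusted p = 0.136).

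Expressed members were present at moderate levels. Their mean level over the 9 libraries had a median of 9.71 CPM per kb (quartiles 5.03 and 17.1), against 13.5 CPM per kb (quartiles 6.37 and 31.1) for all expressed gene models. Not scaled by Length, the medians were 25.5 and 21.2 CPM, so the order turns with the scale. Members took 1.83% to 3.30% of the counted fragments per library, of which a single member, Taro_027264, made up 2.16% to 53.7%. Without Taro_027264 the share was 1.51% to 2.37%, the highest in Sam-07 replicate 2.

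Compared at like exon number and Length over all exon groups together, expressed members lay below expressed gene models with shorter introns, though the size of the gap was poorly fixed against compact ones. For the 202 members in shared classes the median was 10.2 CPM per kb, against a weighted 23.2 CPM per kb for compact gene models, a ratio of 0.438. The weighting left the compact median resting on the equivalent of 33.6 gene models. In single libraries, with expression called in that library alone, the ratio lay between 0.430 and 0.996 with a median of 0.807. Those ratios rest on other gene models than the 0.438, which requires 1 CPM in all 9 libraries. With 1 library left out and 1 CPM required in all the rest, the ratio lay between 0.419 and 0.467. With expression called at 1 CPM in some library the ratio was 1.61, with members the higher. Against gene models with 2000 to under 20000 bp of introns, where the weighting left the equivalent of 1578 gene models, the medians were 9.71 and 12.8 CPM per kb, a ratio of 0.761. The order held in each group from 6 exons up that could be compared, but not with 2 to 5 exons, where the 5 expressed members had a median of 16.6 CPM per kb, against a weighted 14.6 for compact gene models and 13.1 for those with 2000 to under 20000 bp.

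**Figure D3:**
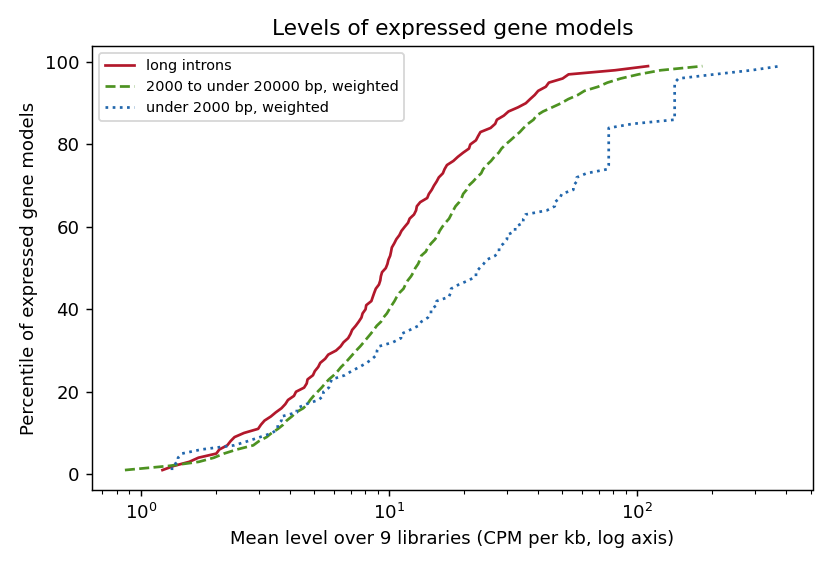
Percentile (vertical axis) against mean level over the 9 libraries (horizontal axis, CPM per kb, log axis) for expressed long-intron gene models (solid), and for expressed gene models with 2000 to under 20000 bp (dashed) and under 2000 bp of introns (dotted), both weighted to the exon numbers and Lengths of the long-intron ones. At the 50th percentile the solid line stands at 9.71, the dashed one at 12.8 and the dotted one at 23.2 CPM per kb; the steps of the dotted line are single compact gene models of large weight.

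A few members were abundant. Above 100 CPM per kb on average were 6 of the 499. Taro_027264 (TARO_scaffold_001695, 9887 to 32692, plus strand, 6 exons, first intron of 10407 bp) led with 4488 CPM per kb and ranked 14 among all gene models. It had 4735, 445 and 5470 CPM in Sam-07 replicates 1, 2 and 3, 1267, 815 and 1877 CPM in Palau 10 replicates 1, 2 and 3, and 954, 10371 and 20801 CPM in Niue replicates 2, 3 and 4. Libraries of a single cultivar were far apart in Sam-07 and in Niue, and the groups overlap. Its fitted log2 fold change of -3.02 in Palau 10 against Niue (SE 1.15) missed the threshold (edgeR adjusted p = 0.362).

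The next most abundant member was Taro_011694 (TARO_scaffold_000444, 46752 to 74410, minus strand, 24 exons), which averaged 1218 CPM per kb and ranked 65. Its 9 libraries lay between 2873 and 6503 CPM, with both extremes in Palau 10, and its SD of log2(CPM + 1) within cultivars was 0.395. The other 3 of the 5 highest members stood well below both. Taro_002316 (TARO_scaffold_000053, 998370 to 1040194, plus strand) averaged 116 CPM per kb, Taro_019290 (TARO_scaffold_000924, 313939 to 340136, plus strand) 114 and Taro_022999 (TARO_scaffold_001238, 135749 to 165967, minus strand) 104.

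Spread between libraries of a cultivar was given as the SD of log2(CPM + 1) within cultivars, pooled over the 3 cultivars. Its median over expressed members was 0.303, against 0.347 over all expressed gene models. By cultivar the medians were 0.293 against 0.313 in Sam-07, 0.293 against 0.367 in Palau 10 and 0.200 against 0.216 in Niue, each time for expressed members against all expressed gene models. Weighted by exon number, Length and level, the 138 comparable members had a median of 0.298 and compact gene models 0.404, which rested on the equivalent of 46.8 gene models. The difference of -0.11 was -0.06 both without Sam-07 replicate 2 and without Palau 10 replicate 3. Against gene models with 2000 to under 20000 bp of introns the medians were 0.299 for 321 members and a weighted 0.335.

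The widest and narrowest members show the range. After Taro_027264, with an SD of 1.82, came Taro_038839 (TARO_scaffold_003521, 95407 to 119610, plus strand) with 1.19 and Taro_048555 (TARO_scaffold_006602, 35919 to 59124, minus strand) with 1.07, and both of these overlap another gene model. Taro_048555 had 47.0, 9.41 and 33.4 CPM in Sam-07, 21.1, 10.2 and 76.0 CPM in Palau 10 and 10.2, 11.1 and 15.2 CPM in Niue. The steadiest was Taro_049700 (TARO_scaffold_007147, 18432 to 41700, plus strand, 15 exons), with an SD of 0.0654. It had 97.1, 105 and 93.5 CPM in Sam-07, 106, 110 and 104 CPM in Palau 10 and 106, 98.0 and 99.9 CPM in Niue. Taro_042967 (TARO_scaffold_004570, 58646 to 87260, plus strand) followed with 0.0858 and Taro_017923 (TARO_scaffold_000826, 156163 to 194444, minus strand) with 0.110.

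Some libraries stood apart from the others of their cultivar, and few members took part. Counted were gene models that averaged 5 CPM or more within a cultivar and whose level in 1 library differed 4-fold or more, on the CPM + 1 scale, from that in each of the remaining libraries. In Palau 10 replicate 3, 1 of the 302 members at this level was so placed, 0.331%, against 900 of 13548 gene models, 6.64%. The member was Taro_017911 (TARO_scaffold_000825, 354496 to 398276, minus strand), with 16.7 CPM in replicate 3 against 3.12 and 3.41 CPM in replicates 1 and 2. Sam-07 replicate 2 had 2 of 314 members so placed, Taro_027264 and Taro_036318, against 2.98% of all gene models. Sam-07 replicate 3 had 1 of 314 members, Taro_038839, against 0.618%, and Niue replicate 2 had 1 of 319, Taro_027264, against 0.751%. No member did so in Sam-07 replicate 1 (0.469% of all gene models), Palau 10 replicates 1 (0.502%) and 2 (0.376%), or Niue replicates 3 (0.743%) and 4 (0.263%). At like exon number, Length and level, 0.341% of 293 members were so placed in Palau 10 replicate 3, against 4.33% of gene models with 2000 to under 20000 bp of introns. In Sam-07 replicate 2 the shares were 0.329% of 304 members and 1.35% of such gene models. Sam-07 replicate 3 had the opposite order, 0.329% of 304 members, which is 1 member, and 0.0558% of such gene models. In the other 6 libraries 0 of the compared members were so placed, against 0.0834% to 0.388% of such gene models.

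Differences among cultivars were tested in edgeR's quasi-likelihood test across the 18865 gene models that passed a filter on low counts, 354 of them members, with Benjamini-Hochberg adjusted p under 0.05 called. Among the 354 members 2 were called in Sam-07 against Niue, 1 higher and 1 lower. Over all tested gene models 1.22% were called, 0.461% higher and 0.758% lower. In Sam-07 against Palau 10, 3 members were called, 2 higher and 1 lower, against 1.73% of all tested (0.848% higher and 0.885% lower). In Palau 10 against Niue 1 member was called, lower in Palau 10, against 1.81% of all tested (0.625% higher and 1.18% lower). Tested for any difference over all 3 cultivars at once, 4 members were called, against 2.72% of all tested. The members' shares were 0.565%, 0.847%, 0.282% and 1.13% in the same order, below the background in each comparison but resting on 1 to 4 calls. Gene models with 2000 to under 20000 bp of introns, weighted by exon number, Length and level, were called at 1.17%, 0.937%, 1.55% and 2.31%, and compact ones at 0.331%, 0.956%, 0.4996% and 1.42%. Against the compact ones, the 153 comparable members were called at 0.654%, 1.31%, 0.654% and 1.96%, which is 1, 2, 1 and 3 members. These shares are not lower, but the calls are too few to give an order.

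Single libraries moved these few calls. Without Palau 10 replicate 3 the members called were 5 in Sam-07 against Palau 10, against 2.10% of all tested, and 2 in Palau 10 against Niue, against 2.21%. Without Sam-07 replicate 2 they were 4 in Sam-07 against Niue, against 1.15% of all tested. In Palau 10 against Niue edgeR called 0 members without Niue replicate 3, Niue replicate 4 or Palau 10 replicate 2, with 15, 16 and 21 of 355 at an unadjusted p under 0.05 and 0.842%, 0.806% and 0.953% of all tested called, and 2 without Niue replicate 2 or Sam-07 replicate 1, against 1.004% and 1.45% of all tested. None of the 2 called without Niue replicate 2 was the member called with all libraries. Any difference was called for 2 members without Niue replicate 3, Niue replicate 4, Palau 10 replicate 2 or Sam-07 replicate 3, against 1.41% to 1.70% of all tested, and for 6 without Palau 10 replicate 3, against 3.46%. DESeq2 called 2 members in Sam-07 against Niue, against 3.09% of all tested gene models, 9 in Sam-07 against Palau 10, against 3.92%, and 7 in Palau 10 against Niue, against 3.8%. It called 11 of the 354 members in any difference, against 6.01% of all tested.

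Taro_033711 showed the clearest difference. This gene model of 12 exons (TARO_scaffold_002595, 78452 to 99536, plus strand, Length 1071 bp, 20014 bp of introns) had 64.4, 50.2 and 43.3 CPM in Sam-07 replicates 1, 2 and 3. It had 1.74, 2.27 and 2.46 CPM in Palau 10 replicates 1, 2 and 3 and 2.26, 5.04 and 2.57 CPM in Niue replicates 2, 3 and 4. All Sam-07 libraries lay above all others without overlap, and Palau 10 and Niue overlapped. Its level was 52.6 ± 10.8 CPM in Sam-07, 2.16 ± 0.369 CPM in Palau 10 and 3.29 ± 1.52 CPM in Niue (SD, n = 3 each). The fitted log2 fold change was 4.60 against Palau 10 (SE 0.37, edgeR adjusted p = 0.000567) and 4.01 against Niue (SE 0.36, adjusted p = 0.00171). Both calls remained in each of the 9 fits that left out 1 library.

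Taro_046767 was nearly absent from Sam-07. It has 14 exons (TARO_scaffold_005852, 61554 to 88576, minus strand, 24305 bp of introns) and had 7, 8 and 1 fragments in Sam-07 replicates 1, 2 and 3, or 0.721, 0.375 and 0.127 CPM. Palau 10 replicates had 4.61, 6.02 and 7.83 CPM and Niue replicates 6.66, 13.3 and 9.65 CPM. Sam-07 lay below both without overlap, and Palau 10 and Niue overlapped. Means were 0.408 ± 0.299 CPM in Sam-07, 6.15 ± 1.62 CPM in Palau 10 and 9.88 ± 3.34 CPM in Niue (SD, n = 3 each). The log2 fold change was -3.87 against Palau 10 (SE 0.53, edgeR adjusted p = 0.00782) and -4.54 against Niue (SE 0.54, adjusted p = 0.00548). Both calls remained in each of the 9 fits that left out 1 library. The call against Palau 10 did so narrowly, with an edgeR adjusted p of 0.0498 without Sam-07 replicate 2.

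Taro_007904 was lower in Palau 10. This gene model of 14 exons (TARO_scaffold_000255, 124389 to 149902, plus strand, 22628 bp of introns) had 37.7, 54.0 and 35.7 CPM in Sam-07, 20.005, 15.5 and 11.8 CPM in Palau 10 and 42.1, 44.7 and 46.1 CPM in Niue. The Palau 10 libraries lay below all 6 others, and Sam-07 and Niue overlapped. The log2 fold change was 1.43 in Sam-07 against Palau 10 (SE 0.25, edgeR adjusted p = 0.0278) and -1.49 in Palau 10 against Niue (SE 0.25, adjusted p = 0.0210). These calls were not firm. In Palau 10 against Niue the adjusted p was 0.0578, 0.0960 and 0.0988 without Niue replicates 2, 3 and 4 and 0.0972 without Palau 10 replicate 2. In Sam-07 against Palau 10 it was 0.0708, 0.0613 and 0.0619 without Sam-07 replicates 1, 2 and 3, 0.117 without Palau 10 replicate 2, and 0.0619 and 0.0697 without Niue replicates 3 and 4. With library size in place of TMM factors it was 0.0915 and 0.0937.

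Taro_026102 was called only in the test of any difference and is named because that test gave 4 members. It has 11 exons (TARO_scaffold_001565, 143645 to 175316, plus strand, 28540 bp of introns) and had 12.9, 8.24 and 6.72 CPM in Sam-07, 28.3, 20.2 and 24.1 CPM in Palau 10 and 8.02, 9.10 and 11.1 CPM in Niue. The Palau 10 libraries lay above all others. The adjusted p was 0.0376 for any difference, 0.0533 for Sam-07 against Palau 10 (log2 fold change -1.38) and 0.0554 for Palau 10 against Niue (1.37). Without single libraries the adjusted p for any difference lay between 0.0260 and 0.156, under the threshold only without Sam-07 replicate 1.

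**Figure D4:**
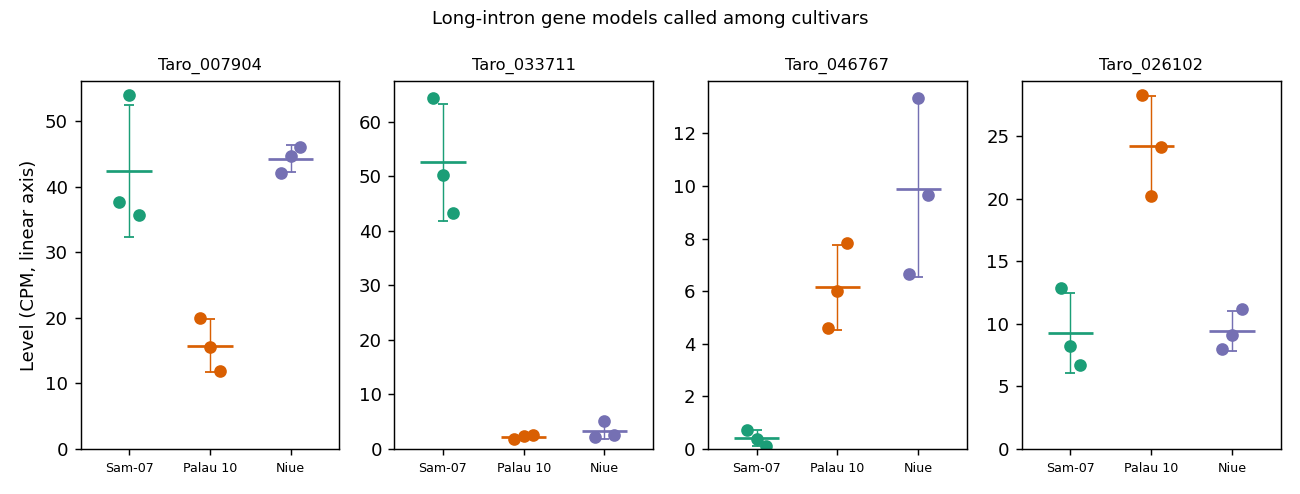
Level (vertical axes, CPM, linear from 0) of the 4 long-intron gene models called in the test of any difference, by cultivar (horizontal axes), with 1 point per library, a bar at the mean and whiskers of 1 SD (n = 3). Sam-07 stands apart for Taro_033711 (52.6 CPM) and Taro_046767 (0.408 CPM), and Palau 10 for Taro_007904 (15.8 CPM) and Taro_026102 (24.2 CPM).

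Members as a whole differed little among cultivars. The median size of the log2 fold change over the 354 tested members was 0.21 in Sam-07 against Niue, 0.23 in Sam-07 against Palau 10 and 0.26 in Palau 10 against Niue, against 0.28, 0.30 and 0.33 over all tested gene models. The gap in median size was smaller against gene models with 2000 to under 20000 bp of introns, weighted by exon number, Length and level. In the same order the medians were 0.207, 0.234 and 0.267 for 345 members and 0.248, 0.258 and 0.301 for these gene models. A fitted change of at least 2-fold occurred in 5.65%, 3.11% and 10.2% of members, against 14.5%, 13.4% and 16.9% of all tested. For this share no weighted comparison was made. Signed medians were 0.00 in Sam-07 against Niue, 0.17 in Sam-07 against Palau 10 and -0.18 in Palau 10 against Niue, against 0.03, 0.02 and 0.02 over all tested. In Sam-07 against Palau 10, 262 members lay above 0 and 92 below, and in Palau 10 against Niue 113 above and 241 below. These pairs share the Palau 10 libraries.

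Libraries of a cultivar deviated from each other as much as the cultivars did. Set against the mean of each gene model over the 9 libraries, on the log2(CPM + 1) scale, the members' median deviation was 0.03, 0.24 and -0.09 in Sam-07 replicates 1, 2 and 3. Palau 10 replicates 1, 2 and 3 had medians of -0.11, -0.25 and 0.05. Niue replicates 2, 3 and 4 had -0.07, 0.14 and 0.12. Each cultivar held libraries on both sides of 0, and the pooled SD within cultivars was 0.15. Over all tested gene models the medians lay within -0.03 and 0.01. Gene models with 2000 to under 20000 bp of introns, weighted by exon number, Length and level, deviated the same way in each of the 9 libraries, from -0.18 in Palau 10 replicate 2 to 0.16 in Sam-07 replicate 2. The signed medians were 0.17 for members and 0.06 for these gene models in Sam-07 against Palau 10, and -0.18 for members and -0.03 for these gene models in Palau 10 against Niue. In Sam-07 against Niue they were 0.00 and 0.03. With single libraries left out the members' median in Palau 10 against Niue lay between -0.24 and -0.11, and in Sam-07 against Palau 10 between 0.04 and 0.27, the lowest without Sam-07 replicate 2 and the highest without Palau 10 replicate 3. In Sam-07 against Niue it lay between -0.13, without Sam-07 replicate 2, and 0.08. What moved the members and the weighted gene models the same way in a library was not tested.

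**Figure D5:**
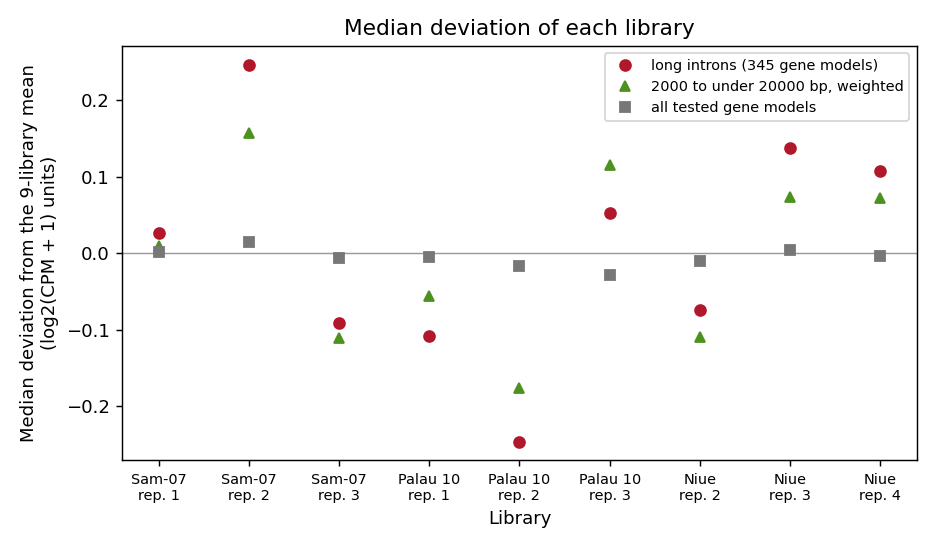
Median deviation from the 9-library mean (vertical axis, log2(CPM + 1) units) in each library (horizontal axis, by cultivar) for 345 tested long-intron gene models (circles), gene models with 2000 to under 20000 bp of introns weighted to them (triangles) and all tested gene models (squares). Circles and triangles lie on the same side of 0 in every library, with the circles between -0.25 in Palau 10 replicate 2 and 0.25 in Sam-07 replicate 2.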

How the data were processed

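Leaf RNA libraries were stranded TruSeq libraries, per the labels' protocols. Named per the submitters' processing notes are Subread 1.4.6 with featureCounts, STAR (as version 3.5.0a), Trimmomatic 0.33 and bcl2fastq 1.8.4. The deposited values are whole fragment counts per gene model, made with featureCounts 1.4.6-p4 over exons without a strand setting, per the file headers. RNA of the opposite strand on the same exons therefore counts, and fragments on several gene models or places do not. As to the genome build, none is given in the sources used. Spans, introns and overlaps were computed from the deposited exon coordinates in Python 3.11.15. Tests of the counts used edgeR 4.0.16 under R 4.3.3 (glmQLFit, glmQLFTest, two-sided, TMM factors, filterByExpr with minimum count 10 and minimum total 15, all 9 libraries, cultivar as the only term), tested on simulated data first. CPM divides by the library's total over the tested gene models times its TMM factor. SEs are the fitted log2 fold change over the root of its F statistic. Weighting used exact exon numbers up to 10, then 11 to 15, 16 to 20 and 21 or more, crossed with Length classes of 0.5 log2 units, and for spread and calls also level classes. Every pair of same-cultivar libraries differed beyond sampling noise (chi-square over degrees of freedom 35.7 or more). Replicate numbers come from the sample titles. Named gene models are the 3 with the most introns by length, the 3 with the longest intron, the 5 highest in level, every pairwise call, the 3 widest and 3 narrowest in spread at a mean of 5 CPM or more, and the 2 on each side of 20000 bp; others are said to be chosen later or illustrate a count. The class limit of 30000 bp, in place of 50000 bp, was chosen after seeing the data. The members, lists and this rule were chosen with earlier results of these data known. Alternatives were other normalizations, filters, limits, member rules, comparison sets, DESeq2 1.42.0, the replicate number as a block and leaving out each library.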

Additional observations from a re-analysis of the deposited data

How the results depend on the processing

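Depth limits the low end: 3 fragments are 0.140 to 0.643 CPM by library, below the 1 CPM limit in each. The share of members expressed was 68.5% at 0.5 CPM, 55.3% at 5 CPM, 71.1% at 1 CPM in some library, 77.8% with 1 fragment in some library, 47.6% for 10000 bp of introns, 100% for the 2 gene models of 50000 bp and 11.1% for a single intron of 20000 bp. Its difference from compact gene models was 34.5 points at 5 CPM, 39.8 at 1 CPM in some library, 29.5 with 1 fragment, 28.5 for 10000 bp, 1.24 for a single intron of 20000 bp, 22.5 with compact set at under 5000 bp, 39.9 with finer Length classes, 44.4 without overlapping gene models, 39.4 in classes with 5 compact gene models and 10.4 against 2000 to under 20000 bp. The difference from gene models of 2000 to 5000 bp was 15.05 points, and 13.8 at 0.5 CPM, 12.7 at 5 CPM, 3 with 1 fragment, 7.76 at 1 CPM in some library, 2.96 for 10000 bp, 27.8 for 50000 bp and -11.06 for a single intron of 20000 bp. The median level of expressed members was 11.1 CPM per kb at 5 CPM, 8.50 with 1 fragment, 11.6 for 10000 bp and 44.7 for 50000 bp. Its ratio to compact was 19.4 with 1 fragment, 1.61 at 1 CPM in some library, 0.699 for 10000 bp, 0.825 for a single intron of 20000 bp, 0.742 under 5000 bp and 0.761 against 2000 to under 20000 bp. The median spread was 0.372 with library size only, 0.248 with a pseudocount of 5 and 0.630 for a single intron of 20000 bp, and its difference from compact was -0.11, -0.036 against 2000 to under 20000 bp and 0.34 for a single intron of 20000 bp.

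In Sam-07 against Niue, Sam-07 against Palau 10, Palau 10 against Niue and any difference, members called were 9, 21, 18 and 30 of 2319 tested for 10000 bp of introns (0.388%, 0.906%, 0.776% and 1.29%, against 1.22%, 1.73%, 1.81% and 2.72% of all tested gene models), and 0 in each for 50000 bp or a single intron of 20000 bp, where 2 and 1 gene models were tested in edgeR and 0 had an unadjusted p under 0.05. DESeq2 called 2, 9, 7 and 11, of which 2, 3, 1 and 4 were shared with edgeR. With at least 10 CPM in 3 libraries 1 was called in Sam-07 against Niue and 2 in any difference, with RLE factors 5 in Sam-07 against Palau 10, and when the third cultivar was left out 2 in Palau 10 against Niue. In edgeR with a replicate block 0, 1, 0 and 1 were called, with 3 and 13 of 354 members at an unadjusted p under 0.05 where 0 were; same-numbered libraries correlated at -0.484 to 0.425 in their deviations, so the numbers were not taken as pairs. Under the block the adjusted p was 0.106 for Taro_033711 in Sam-07 against Niue and 0.0278 in Sam-07 against Palau 10, 0.168 and 0.0915 for Taro_046767, and 0.172 in Sam-07 against Palau 10 and 0.267 in Palau 10 against Niue for Taro_007904, while 9, 70, 1 and 25 of all 18865 gene models were called. Leaving out single libraries gave 2 to 4, 2 to 5, 0 to 2 and 2 to 6 calls, shares of 67.1% to 67.7%, differences from compact of 42.9 to 44.2 points and from 2000 to 5000 bp of 14.3 to 15.6, levels of 9.49 to 9.77 CPM per kb with ratios of 0.419 to 0.467, and spreads of 0.251 to 0.325 with differences of -0.12 to -0.06. Signed medians in Sam-07 against Niue, near 0, turned to -0.0122 with RLE factors, -0.0118 with at least 10 CPM, -0.0102 without the third cultivar, -0.00556 with DESeq2, and lay between -0.131 and 0.0794 without single libraries. With library size in place of TMM factors the median over all tested gene models in Palau 10 against Niue was 0.16, and that of members -0.03, so members again lay below it. The cause of these changes was not tested. Comparisons with 2000 to under 20000 bp, classes with 5 compact gene models, exon-number groups and alternatives for signed medians were chosen after seeing the data.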
